A study of Mus musculus with 3 samples.

Results

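The fibrillar collagen chains are 7 genes of the 29994 in the count matrices, Col1a1, Col1a2, Col3a1, Col5a1, Col5a2, Col5a3 and Col11a1, chosen by symbol and summed where the family is named. They were followed across cell classes of the mouse ventricle in 3 droplet libraries (10x Genomics) of frozen tissue from C57B6 mice. The TAC+ART library came from hearts under transverse aortic constriction (TAC), a narrowing of the aorta that loads the left ventricle with pressure, in mice given artesunate, a drug of the artemisinin family. The TAC library came from constricted hearts of mice given vehicle, and the Sham library from sham-operated hearts of mice given vehicle. Each library pooled 3 hearts, so a group is 1 library and no difference was tested. The series title speaks of a drug screen in cardiac fibrosis and of MD2. The labels leave out ages, doses, treatment times and whether cells or nuclei were loaded, so barcodes are called cells below.

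Fibrillar collagens are rods of 3 chains wound into a triple helix, which are secreted as procollagens and pack side by side into fibrils. Type I collagen joins chains of Col1a1 and Col1a2 and carries most of the tension in scar and in the ventricular wall, whereas type III collagen is built of Col3a1 alone and forms finer, more compliant fibrils. Type V collagen, from Col5a1, Col5a2 and in some tissues Col5a3, starts fibrils and limits their width. Col11a1, a chain of type XI collagen best known from cartilage, can join type V chains. In the heart, fibroblasts are the best known source of types I and III, and pressure load is a classic cause of fibrosis.

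The TAC+ART, TAC and Sham libraries held 6856, 7413 and 3752 barcodes, with a median of 4524.5 UMIs (unique molecules counted) per barcode in TAC+ART, 4811 in TAC and 4310 in Sham. After filters, 6480, 6972 and 3638 cells remained. Between 20 and 27 barcodes were shared by each pair of libraries. Cells were placed in classes by a score on marker genes that left out all 7 chains. The fibroblast-like class held 1721 TAC+ART cells, 1485 TAC cells and 1063 Sham cells, and all 8 of its markers (Pdgfra, Dcn, Lum, Tcf21, Abca8a, Abca9, Dpt and Bicc1) were present in each library. These markers summed to 10579 counts per 1000000 UMIs (CPM) in TAC+ART, 7401 CPM in TAC and 10887 CPM in Sham fibroblast-like cells. The cells differed in median depth, at 5390 UMIs in TAC+ART, 6438 in TAC and 4642 in Sham. All 10 cardiomyocyte markers were also found in them, at 4541, 4101 and 3891 CPM summed in TAC+ART, TAC and Sham, and the 10 macrophage markers at 241, 247 and 119 CPM. Ribosomal protein genes took 0.943% of their UMIs in TAC+ART, 1.18% in TAC and 0.523% in Sham. What part these differences have in the collagen values was not tested.

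The 7 genes lie on 6 chromosomes of GRCm38 (GENCODE M21): Col1a1 at chr11:94936224-94953042, Col1a2 at chr6:4504814-4541544, Col5a1 at chr2:27886425-28039514, Col11a1 at chr3:114030540-114220718 (all on the plus strand), Col5a3 at chr9:20770050-20815067 on the minus strand, and a pair on chromosome 1. Of that pair, Col3a1 (chr1:45311538-45349706, plus strand) and Col5a2 (chr1:45374321-45503282, minus strand) point toward each other with 24614 bases between their ends. Exons cover 39.0% of the Col1a1 gene but 5.55% of Col5a1. RefSeq promoters (GRCm38.p6) were matched for 5 of the 7 chains, without Col1a1 and Col5a2. The 250 bases before the start site are shown for 4 of these 5 chains, whose levels differed unequally between libraries and classes. Col11a1, the rarest chain, is not shown. CCAAT boxes (CCAAT or ATTGG) and Smad sites (CAGACA or TGTCTG) are in capitals. The windows are Col1a2 at chr6:4505368-4505617, plus strand, Col3a1 at chr1:45311288-45311537, plus strand, Col5a1 at chr2:27886175-27886424, plus strand, and Col5a3 at chr9:20815068-20815317, minus strand. The RefSeq start of Col1a2 lies inside the GENCODE gene, so this window is within that gene model.
Col1a2: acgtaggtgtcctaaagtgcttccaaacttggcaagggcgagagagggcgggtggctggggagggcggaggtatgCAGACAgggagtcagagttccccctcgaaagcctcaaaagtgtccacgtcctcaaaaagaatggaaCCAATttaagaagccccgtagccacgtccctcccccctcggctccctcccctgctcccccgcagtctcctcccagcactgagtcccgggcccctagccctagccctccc
Col3a1: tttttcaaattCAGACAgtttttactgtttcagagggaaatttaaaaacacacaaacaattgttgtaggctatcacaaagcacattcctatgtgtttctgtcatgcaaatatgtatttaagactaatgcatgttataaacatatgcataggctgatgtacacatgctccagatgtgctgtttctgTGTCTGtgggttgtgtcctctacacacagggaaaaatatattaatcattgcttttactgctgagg
Col5a1: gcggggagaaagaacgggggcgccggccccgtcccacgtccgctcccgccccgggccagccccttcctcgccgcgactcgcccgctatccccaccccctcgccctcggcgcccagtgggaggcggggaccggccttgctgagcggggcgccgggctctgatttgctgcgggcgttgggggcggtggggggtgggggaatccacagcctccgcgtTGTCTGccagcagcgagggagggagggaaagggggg
Col5a3: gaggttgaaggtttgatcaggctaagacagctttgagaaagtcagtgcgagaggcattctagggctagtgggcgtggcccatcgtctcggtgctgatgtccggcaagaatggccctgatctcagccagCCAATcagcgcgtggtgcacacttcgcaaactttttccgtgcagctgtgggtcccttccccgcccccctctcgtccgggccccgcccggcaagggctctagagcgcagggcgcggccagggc
Col1a2 and Col5a3 had 1 CCAAT box each, at bases -109 to -105 and -122 to -118 from the start, and Col3a1 and Col5a1 had none. Smad sites numbered 2 in Col3a1, 1 in Col1a2 and 1 in Col5a1. Sp1 sites (GGGCGG) numbered 2 each in Col1a2, Col5a1 and Col5a3, and Col3a1 alone had a TATA box (TATAAA) and a TEAD site (GGAATG). The Col11a1 window, which is not shown, had 1 CCAAT box, 2 Sp1 sites and no Smad site. None of these matches overlapped another. Both strands were searched, and no match was found for the E-box CACCTG, the AP-1 site TGANTCA or the CArG box. Of 32851 mouse promoters of this length, 33.8% held a CCAAT box, 17.1% the Smad site, 32.7% the Sp1 site, 12.4% the TATA box and 12.6% the TEAD site. The E-box, AP-1 site and CArG box were in 17.2%, 6.75% and 1.47%. The Col3a1 window had 35.2% G and C bases and the Col5a1 window 76.4%, around a mean of 53.2% over all promoters. These are matches of letters and show no binding.

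The first comparison concerns pressure load in fibroblast-like cells. The 7 chains together took 4239.6 CPM in TAC and 1577 CPM in Sham fibroblast-like cells, a 2.69-fold higher level in TAC (log2 ratio 1.43, 95% interval 1.39 to 1.46). All 6 chains with at least 100 UMIs in the libraries compared were higher in TAC by 1.5-fold or more, where 16.0% of 11263 genes measured in these cells were. The median log2 ratio of the 6 chains was 1.34, and that of all genes 0.03. Intervals cover counting error only, not differences between hearts, and are exact unless said otherwise. Those of summed UMIs also leave out the spread between cells.

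Both chains of type I collagen were higher in TAC, but not by the same amount. Col1a1 was counted at 448 CPM in TAC+ART (interval 434 to 461), 712 CPM in TAC (695 to 729) and 146 CPM in Sham (136 to 157). Its log2 ratio of TAC over Sham was 2.29 (2.18 to 2.40), or 4.88-fold, which ranked 61 of 11263 genes. Col1a2 stood at 589.7 CPM in TAC+ART, 847 CPM in TAC and 334 CPM in Sham, with a log2 ratio of TAC over Sham of 1.34 (1.27 to 1.42), or 2.53-fold. The gap between them shows in the UMIs of Col1a1 per UMI of Col1a2, which were 0.759 in TAC+ART (0.729 to 0.790), 0.840 in TAC (0.814 to 0.868) and 0.436 in Sham (0.400 to 0.475). The value in each constricted library thus lay well above that in Sham. As the count per molecule can differ between genes, this ratio is read across libraries and is not the ratio of the chains in the protein.

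Col3a1, the chain of type III collagen, was counted at 871 CPM in TAC+ART (852 to 890), 1370.1 CPM in TAC (1347 to 1394) and 418 CPM in Sham (401 to 436). It was 3.27-fold higher in TAC than in Sham (log2 ratio 1.71, 1.65 to 1.78), rank 161. Its UMIs per UMI of Col1a2 were 1.48 in TAC+ART, 1.62 in TAC and 1.25 in Sham, with intervals that did not overlap.

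The type V chains differed less between libraries, with 1 exception. Col5a1 was counted at 347 CPM in TAC+ART, 443 CPM in TAC and 254 CPM in Sham. Its log2 ratio of TAC over Sham was 0.80 (0.71 to 0.89), the smallest of the 6 chains. Col5a2 had 512 CPM in TAC+ART, 709 CPM in TAC and 362 CPM in Sham, with a log2 ratio of 0.97 (0.89 to 1.04). Col5a3, the type V chain with the more restricted expression, had 87.6 CPM in TAC+ART (81.8 to 93.7), 154 CPM in TAC (146 to 162) and 61.2 CPM in Sham (54.6 to 68.2). Its log2 ratio of 1.33 (1.16 to 1.51) matched that of Col1a2 within counting error and lay above those of Col5a1 and Col5a2.

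Col11a1 was rare. There were 6 UMIs in TAC+ART, 39 in TAC and 3 in Sham fibroblast-like cells, or 0.623, 4.10 and 0.573 CPM. It had fewer than the 100 UMIs asked for a call. The ratio of TAC over Sham was 2.63 on the log2 scale with a wide interval (1.18 to 5.18). Of the 39 TAC molecules, 17 were in cells with Thbs4 or Comp and 19 in other cells with Postn. Macrophage-like and cardiomyocyte-like cells of every library held 0, which allows up to 0.510 CPM in TAC macrophage-like cells (3 counts of the class total).

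**Figure D1:**
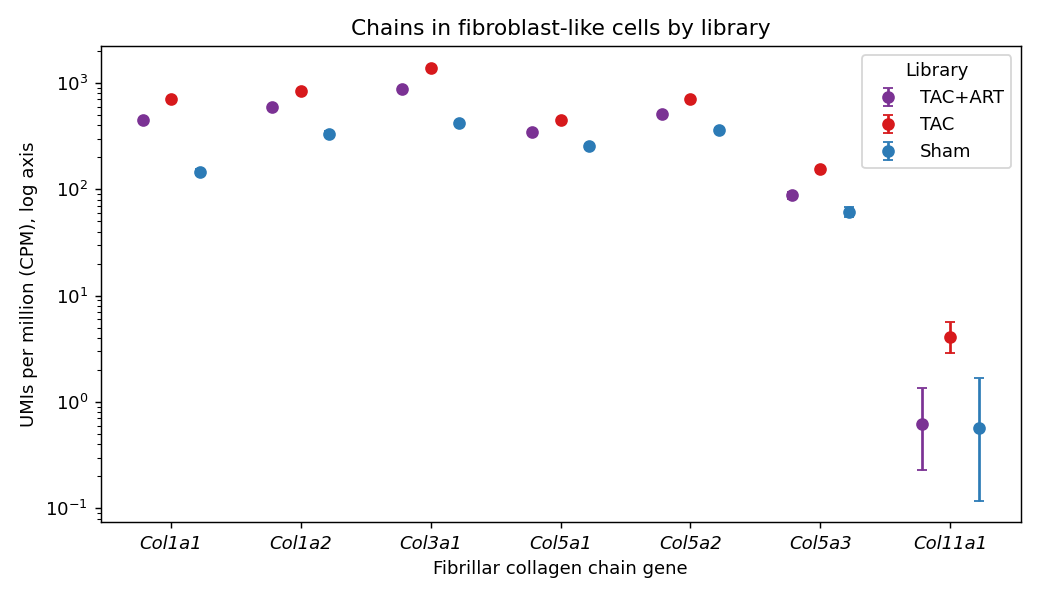
Level of each chain in fibroblast-like cells, in CPM on a log axis, with exact 95% Poisson intervals for counting error and 1 library per group. TAC points lie highest for all 7 chains, TAC+ART points lie between TAC and Sham for the first 6, and Col11a1 is at 0.623 CPM in TAC+ART and 0.573 CPM in Sham.

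The second comparison concerns artesunate in constricted hearts. The family took 2856 CPM in TAC+ART and 4239.6 CPM in TAC fibroblast-like cells, a log2 ratio of -0.57 (-0.59 to -0.55). Of the 6 chains, 3 were lower in TAC+ART by 1.5-fold or more, where 6.30% of 12046 genes were, and the median log2 ratio of the chains was -0.59 against -0.05 for all genes. The 3 were Col5a3 at -0.82 (-0.94 to -0.69), Col1a1 at -0.67 (-0.72 to -0.61) and Col3a1 at -0.65 (-0.69 to -0.61). Short of 1.5-fold lay Col1a2 at -0.52 (-0.57 to -0.47) and Col5a2 at -0.47 (-0.52 to -0.41), with Col5a1 at -0.35 (-0.42 to -0.29). With classes taken from clusters, Col1a1 (-0.58) and Col3a1 (-0.55) too lay short of 1.5-fold, and 1 chain, Col5a3 (-0.78), was past it. The share of all genes was not computed for those classes. The Col11a1 ratio was -2.62 (-4.25 to -1.47) on 6 UMIs in TAC+ART and 39 in TAC.

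Set against Sham, the TAC+ART library was still higher for the family, at a log2 ratio of 0.86 (0.82 to 0.89). Past 1.5-fold were 3 of the 6 chains, Col1a1 at 1.62 (1.51 to 1.73), Col3a1 at 1.06 (0.99 to 1.13) and Col1a2 at 0.82 (0.74 to 0.90), where 8.51% of 11268 genes were. The type V chains were at 0.45 for Col5a1, 0.50 for Col5a2 and 0.52 for Col5a3, with the last interval running from 0.33 to 0.71. The 3 comparisons share libraries and are not independent of each other.

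**Figure D2:**
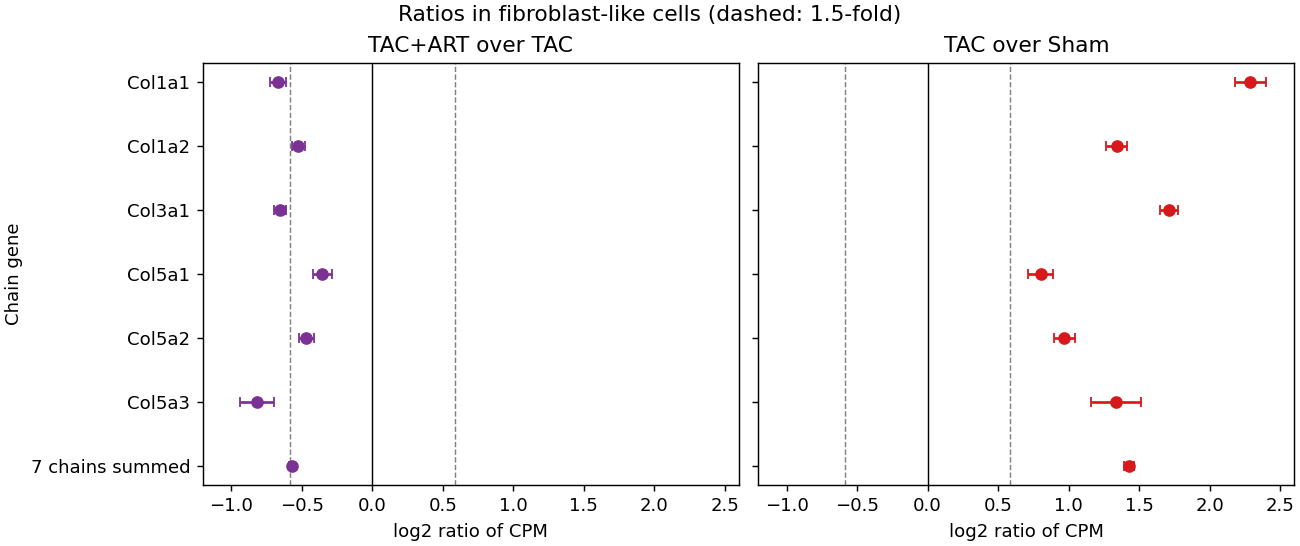
Log2 ratios of CPM in fibroblast-like cells for TAC+ART over TAC (left) and TAC over Sham (right), for the 6 chains with at least 100 UMIs and for the 7 chains summed, with exact 95% intervals for counting error; dashed lines mark 1.5-fold. On the right the values run from 0.80 for Col5a1 to 2.29 for Col1a1, and on the left from -0.82 for Col5a3 to -0.35 for Col5a1.

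The makeup of the family in fibroblast-like cells therefore differed between libraries. Col1a1 gave 15.7% of the chain UMIs in TAC+ART (15.2% to 16.1%), 16.8% in TAC (16.4% to 17.2%) and 9.25% in Sham (8.63% to 9.89%). Col3a1 gave 30.5% in TAC+ART, 32.3% in TAC and 26.5% in Sham. Col5a1 and Col5a2 went the other way: Col5a1 gave 12.2% in TAC+ART, 10.46% in TAC and 16.1% in Sham, and Col5a2 gave 17.9%, 16.7% and 23.0% in the same libraries. The share of Col1a2 was 20.6% in TAC+ART, 19.98% in TAC and 21.2% in Sham. In both constricted libraries a larger part of the chain RNA was thus Col1a1 and Col3a1, and a smaller part Col5a1 and Col5a2, than in Sham.

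The level was spread over most fibroblast-like cells. With each cell thinned to 1000 UMIs, a chain UMI was found in 88.1% of TAC+ART cells (86.5% to 89.6%), 95.1% of TAC cells (93.9% to 96.1%) and 72.8% of Sham cells (70.0% to 75.5%). Cardiomyocyte-like cells, which are not known to make type I or III collagen, gave 37.9% in TAC+ART, 61.1% in TAC and 12.4% in Sham at the same depth, their median before thinning being 5688, 4445.5 and 7564 UMIs. Unthinned, the fibroblast-like shares were 99.8%, 100% and 98.5%. A Col1a1 UMI was found in 32.1% of fibroblast-like cells of TAC+ART, 44.8% of TAC and 12.4% of Sham. The cardiomyocyte-like shares for Col1a1 were 9.61% in TAC+ART, 16.0% in TAC and 3.01% in Sham. Every fibroblast-like share above lay over its cardiomyocyte-like value in the same library.

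At 2000 UMIs per cell, the mean chain count was 5.56 in TAC+ART cells, 8.54 in TAC cells and 3.01 in Sham cells, with medians of 5, 7 and 2. Cells with 10 or more chain UMIs made up 13.4% of TAC+ART (11.8% to 15.1%), 30.9% of TAC (28.5% to 33.3%) and 1.81% of Sham cells (1.09% to 2.81%). The variance over the mean was 2.47 in TAC+ART, 6.70 in TAC and 2.06 in Sham, and the most in 1 cell was 40, 121 and 21. At least 20 chain UMIs were found in 10 cells of TAC+ART (0.587%), 58 of TAC (3.96%) and 1 of Sham (0.0951%), of which 1, 13 and 0 belonged to cluster 12 of a clustering made without the chains. Of 12 TAC cells with at least 40 chain UMIs, 8 belonged to that cluster. Cluster 12 held 146 TAC+ART, 246 TAC and 19 Sham barcodes of low depth (medians of 1671, 1603.5 and 1540 UMIs) with 2.84%, 2.66% and 2.80% mitochondrial UMIs. Its chain level was 4294 CPM in TAC+ART, 9641 CPM in TAC and 2148 CPM in Sham, and 4, 32 and 1 of its barcodes were among the fibroblast-like cells. Without them, the family ratio was 1.39 in TAC over Sham, and it was -0.53 in TAC+ART over TAC.

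More chains were found per cell in TAC than in the other libraries. At 2000 UMIs, 4 chains were seen in 22.2% of TAC+ART, 29.5% of TAC and 9.70% of Sham cells, and 5 chains in 11.8%, 22.7% and 2.47%. No chain was seen in 2.41% of TAC+ART, 1.09% of TAC and 9.13% of Sham cells. In TAC, Col3a1 was seen in 86.8% of the 954 cells with a Col1a1 UMI (84.5% to 88.9%) and in 69.5% of the 512 cells without one (65.3% to 73.5%). In TAC+ART it was seen in 76.3% of the 859 cells with a Col1a1 UMI and in 64.3% of the 845 cells without. In Sham the values were 58.4% of 221 cells and 40.8% of 831 cells. Not every pair of chains ran this way. Col5a1 in TAC+ART was seen in 45.7% of the 1198 cells with a Col3a1 UMI and in 48.8% of the 506 without, with intervals that overlapped.

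**Figure D3:**
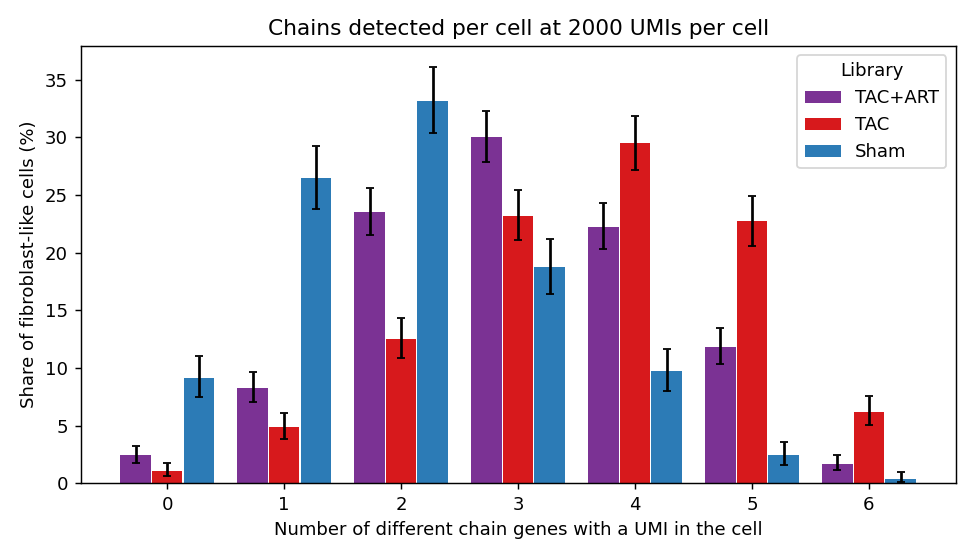
Share of fibroblast-like cells by the number of different chain genes with a UMI, each cell thinned to 2000 UMIs, with exact 95% binomial intervals for counting error. The Sham cells are most often at 2 chains (33.2%), TAC+ART cells at 3 (30.05%) and TAC cells at 4 (29.5%).

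Fibroblast-like cells were also split by genes of activated fibroblasts, Postn (periostin, a matrix protein of activated fibroblasts), Thbs4 and Comp (thrombospondin family proteins). Cells with a Thbs4 or Comp UMI numbered 151 in TAC+ART, 465 in TAC and 10 in Sham, and had 3866 CPM of the family in TAC+ART, 4795 CPM in TAC and 1785 CPM in Sham. Other cells with Postn numbered 746, 836 and 85, at 3140.4 CPM in TAC+ART, 4095 CPM in TAC and 2299 CPM in Sham. Cells with a UMI of none of these genes numbered 824, 184 and 968, at 2354 CPM in TAC+ART, 3337 CPM in TAC and 1499.9 CPM in Sham. Their median depths were 4943.5 UMIs in TAC+ART, 5324.5 in TAC and 4594 in Sham, and a gene can be missed at such depth. The chains were thus higher in TAC than in Sham within cells without these genes as well (log2 ratio 1.15, 1.09 to 1.21). In those cells Col1a1 had a log2 ratio of TAC over Sham of 2.20 (2.04 to 2.36) and Col5a3 of 1.66 (1.39 to 1.92), while Col5a1 had 0.55 (0.37 to 0.72).

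Within each of the 3 splits the family was lower in TAC+ART than in TAC. The log2 ratio was -0.31 (-0.36 to -0.26) in cells with Thbs4 or Comp, -0.38 (-0.41 to -0.35) in other cells with Postn and -0.50 (-0.56 to -0.45) in cells with none. Col5a3 had the lowest ratio of the 6 chains in each, at -1.03, -0.83 and -1.12. Cells with Grm8, a glutamate receptor gene, numbered 116 in TAC+ART, 14 in TAC and 117 in Sham and had 2437 CPM of the family in TAC+ART, 3978 CPM in TAC and 1372 CPM in Sham.

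Clusters that were built without the chains sorted fibroblast-like cells mostly by library. Cluster 15 held 11.6% of TAC+ART, 76.1% of TAC and 1.69% of Sham fibroblast-like cells, cluster 3 held 62.4%, 4.18% and 10.1%, and cluster 5 held 10.6%, 3.23% and 67.8%. With 1 library per group, such a cluster may stand for its library. In cluster 15 the family level was 4212 CPM in TAC+ART (4097 to 4330), 4212 CPM in TAC (4165 to 4260) and 2745 CPM in Sham, so that in this cluster the constricted libraries differed by less than the counting error. Col5a3 was lower in TAC+ART than in TAC there all the same, with a log2 ratio of -0.79 (-1.08 to -0.52), and likewise in cluster 3 at -0.73 (-1.10 to -0.31) and cluster 5 at -1.05 (-1.72 to -0.34). The family intervals overlapped in cluster 3 too, at 2579 CPM in TAC+ART (2538 to 2621) and 2732 CPM in TAC (2566 to 2906). In cluster 5 the family intervals lay apart, at 2221 CPM in TAC+ART (2133 to 2312) and 3252 CPM in TAC (3052 to 3463). Cluster 4 was the most evenly shared, with 14.6% of TAC+ART, 14.1% of TAC and 20.2% of Sham fibroblast-like cells. In it the family was at 3186 CPM in TAC+ART (3096 to 3277), 4062 CPM in TAC (3961 to 4165) and 1884 CPM in Sham (1809 to 1963). The Col5a3 ratio of TAC+ART over TAC in cluster 4 was -0.23 (-0.67 to 0.20), within counting error.

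In each library the family was lower in the other 6 main classes than in fibroblast-like cells. The family level in TAC cells ran in the order fibroblast-like at 4239.6, pericyte-like at 1281, endocardial-like at 1056, cardiomyocyte-like at 841, endothelial-like at 757, lymphatic endothelial-like at 726 and macrophage-like at 588 CPM, and of these neighbours only the endothelial-like and lymphatic values overlapped in their intervals. In TAC+ART the order was fibroblast-like, pericyte-like (1013), endocardial-like (924), endothelial-like (579), lymphatic endothelial-like (486), macrophage-like (411) and cardiomyocyte-like (389 CPM). There the pericyte-like and endocardial-like intervals overlapped, and so did the last pair. In Sham, endocardial-like (718) and pericyte-like cells (708) followed fibroblast-like cells (1577 CPM) and overlapped. Then came lymphatic (256) and endothelial-like cells (232), which overlapped, and macrophage-like (124) and cardiomyocyte-like cells (94.5 CPM), which also did. The 8 fibroblast markers, none of them a chain, summed over the 3 libraries to 9405 CPM in fibroblast-like, 2025 CPM in pericyte-like, 1821 CPM in endocardial-like, 1661 CPM in macrophage-like and 816 CPM in cardiomyocyte-like cells.

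**Figure D4:**
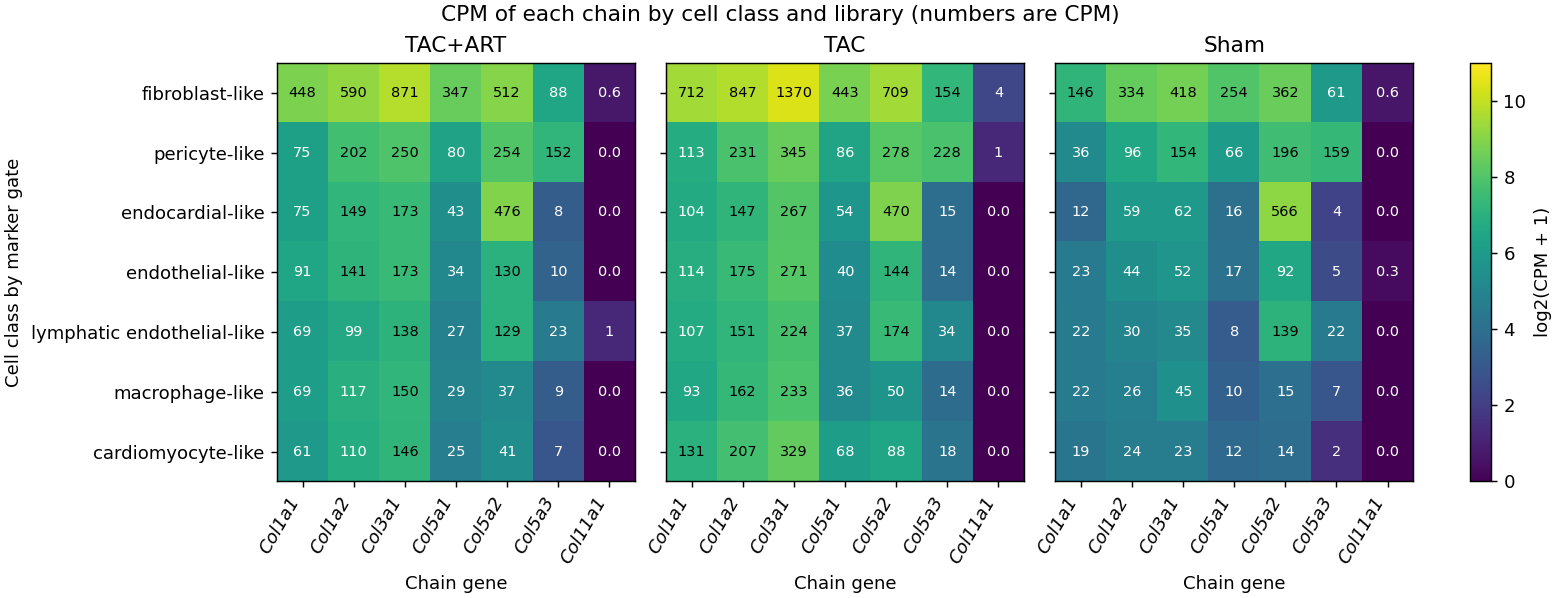
CPM of each chain (columns) in 7 cell classes (rows), in TAC+ART, TAC and Sham, coloured by log2(CPM + 1) with the CPM printed in each cell. Fibroblast-like cells are brightest for most chains, Col5a2 stands out in endocardial-like cells (476, 470 and 566 CPM in TAC+ART, TAC and Sham), and Col5a3 in pericyte-like cells (152, 228 and 159 CPM).

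In pericyte-like cells, the mural cells of capillaries, Col5a3 was the chain that stood out. It had 152 CPM in TAC+ART (134 to 172), 228 CPM in TAC (204 to 253) and 159 CPM in Sham (139 to 181), above the fibroblast-like level of the same library in all 3. The log2 ratio of pericyte-like over fibroblast-like cells was 0.80 (0.59 to 1.002) in TAC+ART, 0.56 (0.39 to 0.73) in TAC and 1.38 (1.13 to 1.63) in Sham. Pericyte-like cells were 5.25% of cells in TAC+ART, 4.17% in TAC and 9.24% in Sham. They held 17.3% of all Col5a3 UMIs in TAC+ART, 13.7% in TAC and 35.4% in Sham (31.8% to 39.2%). Col5a3 was higher in TAC than in Sham pericyte-like cells by 0.52 on the log2 scale (0.27 to 0.77) and at -0.58 in TAC+ART over TAC (-0.82 to -0.34), both short of 1.5-fold. Of the 6 chains, Col1a1 (1.64), Col1a2 (1.27) and Col3a1 (1.16) were past 1.5-fold in TAC over Sham, where 9.26% of 5195 genes were. In TAC+ART over TAC 1 of 6 was lower by that much, Col1a1 at -0.59, where 3.88% of 5363 genes were.

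The chains of types I and III in pericyte-like cells ran in the same order over the libraries as in macrophage-like cells. The macrophage-like level is used here as a reference for free RNA, and whether it is free RNA was not tested. Col1a1, Col1a2 and Col3a1 summed to 527 CPM in TAC+ART, 688 CPM in TAC and 286 CPM in Sham pericyte-like cells, and to 336, 488 and 92.6 CPM in macrophage-like cells. The excess over the macrophage-like level was 190.4 CPM in TAC+ART (151 to 230.2), 200.4 CPM in TAC (155 to 246) and 194 CPM in Sham (161 to 226), which differed by less than the counting error (intervals of an excess are normal approximations). Over the cardiomyocyte-like level it was 209.7 CPM in TAC+ART, 21.4 CPM in TAC (-40.4 to 83.2) and 220.3 CPM in Sham, so the TAC value depended on the class taken as free RNA. For Col5a3 the excess over macrophage-like cells was 144 CPM in TAC+ART (125 to 163), 214 CPM in TAC (189.8 to 238) and 152 CPM in Sham (131 to 173), so that the TAC value lay apart.

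Endocardial-like cells, which line the chambers, had Col5a2 as their leading chain. It was counted at 476 CPM in TAC+ART (437 to 516), 469.9 CPM in TAC (436 to 506) and 566 CPM in Sham (516 to 620). Its log2 ratio over fibroblast-like cells was -0.11 (-0.24 to 0.02) in TAC+ART, -0.59 (-0.71 to -0.48) in TAC and 0.65 (0.50 to 0.79) in Sham. Col5a2 was the only tested chain that was not higher in TAC than in Sham in this class, with a log2 ratio of -0.27 (-0.44 to -0.10), and it stood at 0.02 (-0.14 to 0.18) in TAC+ART over TAC. It gave 78.8% of the chain UMIs in Sham endocardial-like cells. Col1a1, Col1a2 and Col3a1 were 3 of 4 tested chains past 1.5-fold in TAC over Sham, where 9.39% of 4524 genes were. Their summed excess over macrophage-like cells was 60.8 CPM in TAC+ART, 29.5 CPM in TAC (-10.9 to 69.9) and 40.2 CPM in Sham. Over cardiomyocyte-like cells it was 80.1 CPM in TAC+ART, -149 CPM in TAC (-208 to -91.4) and 66.9 CPM in Sham, so the TAC level lay below that of cardiomyocyte-like cells. In TAC+ART over TAC, 1 of 5 was lower by 1.5-fold, Col3a1 at -0.63, where 6.25% of 5027 genes were.

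Endothelial-like cells had 130.1 CPM of Col5a2 in TAC+ART, 144 CPM in TAC and 91.5 CPM in Sham, and lymphatic endothelial-like cells had 129, 174 and 139 CPM. In both classes this was the chain with the largest excess over macrophage-like cells, at 92.8 CPM in TAC+ART, 93.6 CPM in TAC and 76.3 CPM in Sham for endothelial-like cells. In endothelial-like cells all 6 chains were past 1.5-fold in TAC over Sham, where 10.2% of 10441 genes were, from 0.65 for Col5a2 to 2.38 for Col3a1. After subtracting the cardiomyocyte-like level Col5a2 turned to -0.46, and after subtracting the macrophage-like level Col1a2 turned to -0.40 and Col5a1 to -1.15. No ratio could be formed after the cardiomyocyte-like subtraction for chains whose TAC level lay below that of cardiomyocyte-like cells. These were Col1a1 (114 against 131 CPM), Col1a2 (175 against 207), Col3a1 (271 against 329), Col5a1 (39.6 against 68.3) and Col5a3 (14.2 against 17.7). After the macrophage-like subtraction none could be formed for Col5a3, with 4.82 against 6.69 CPM in Sham. The excess of the family over cardiomyocyte-like cells was 189.4 CPM in TAC+ART, -83.6 CPM in TAC (-138 to -29.2) and 137 CPM in Sham. Lower by 1.5-fold in TAC+ART over TAC was 1 of 6 (Col3a1, -0.64), where 4.75% of 11130 genes were. In lymphatic endothelial-like cells 3 of 4 chains were past 1.5-fold in TAC over Sham (Col1a1, Col1a2 and Col3a1), where 11.6% of 3568 genes were. The same 3 of 4 lay lower by that much in TAC+ART than in TAC, where 5.55% of 4128 genes were.

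Macrophage-like and cardiomyocyte-like cells carried the chains in like proportions. Col1a1 per Col1a2 was 0.587 in TAC+ART and 0.576 in TAC macrophage-like cells, and 0.552 in TAC+ART and 0.634 in TAC cardiomyocyte-like cells, with intervals that overlapped. Both classes lay below the ratio of fibroblast-like cells in TAC+ART and TAC. In Sham, 23 Col1a1 and 27 Col1a2 UMIs left the macrophage-like ratio at 0.852 (0.467 to 1.54). The Sham cardiomyocyte-like ratio was 0.780 (0.4996 to 1.21), above the Sham fibroblast-like ratio of 0.436 (0.400 to 0.475), the opposite order to the constricted libraries. In macrophage-like cells 5 of 5 tested chains were past 1.5-fold in TAC over Sham, where 12.9% of 8532 genes were, and the family ratio was 2.24 (1.99 to 2.51). Lower by 1.5-fold in TAC+ART over TAC were 2 of 6, Col3a1 at -0.63 and Col5a3 at -0.68, where 6.01% of 9622 genes were. In cardiomyocyte-like cells 5 of 5 were past 1.5-fold in TAC over Sham and 5 of 5 were lower in TAC+ART over TAC by that much, where 23.6% of 5090 genes and 18.4% of 5256 genes were. The median depth of cardiomyocyte-like cells was 5663 UMIs in TAC+ART, 4445.5 in TAC and 7501 in Sham. How far free RNA, depth or expression by these cells made up these values was not tested.

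**Figure D5:**
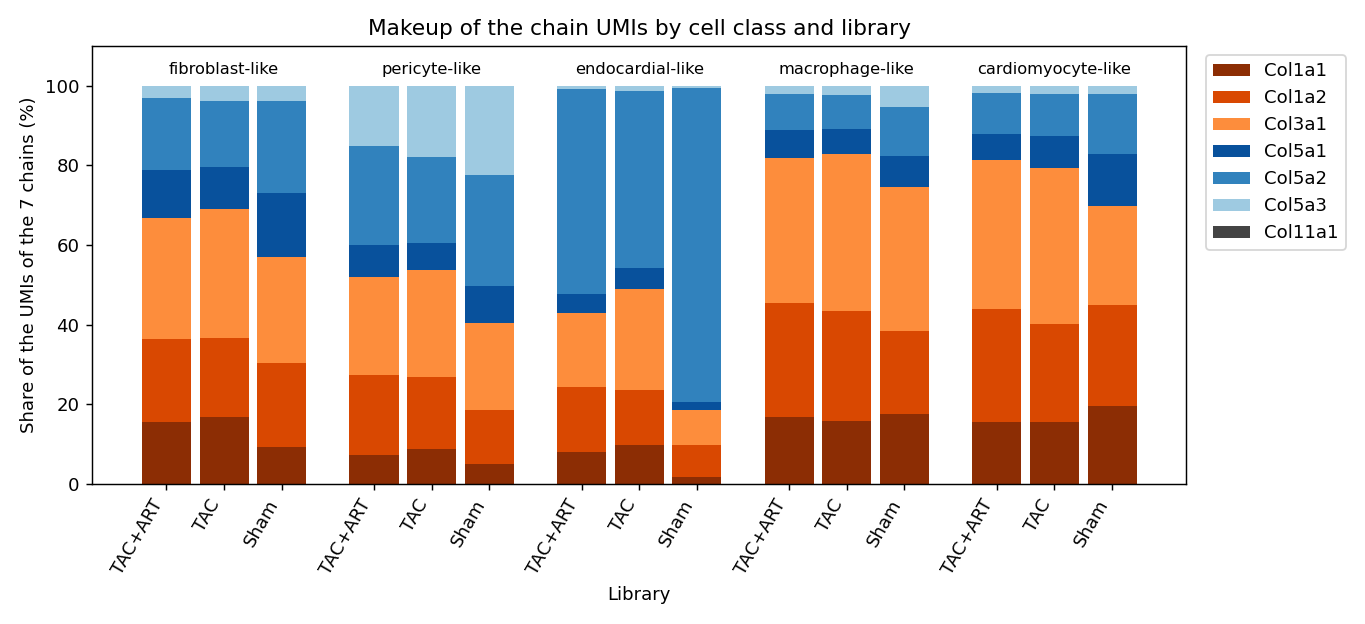
Share of each chain in the UMIs of the 7 chains, by cell class and library. Col5a3 has its largest shares in pericyte-like cells, Col5a2 makes up 78.8% in Sham endocardial-like cells, and Col1a1 takes 15.7%, 16.8% and 9.25% in fibroblast-like cells of TAC+ART, TAC and Sham.

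Classes with fewer than 50 cells in a library gave counts too low to compare libraries. In 46 epicardial-like cells, which cover the heart surface, Col3a1 was at 1691 CPM in TAC+ART (1463 to 1945), 1211 CPM in TAC (982 to 1478) and 1702 CPM in Sham (1419.8 to 2023). Over the 3 libraries these cells had 1553 CPM of Col3a1 and 125 CPM of Col1a1, where fibroblast-like cells had 969 CPM and 486 CPM. In 17 Schwann-like cells the family took 2417 CPM (2057 to 2822) over the 3 libraries, with 18 UMIs of Col5a3 (272 CPM) and 3 of Col11a1 (45.3 CPM). In 37 smooth muscle-like cells it took 513 CPM.

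Fibroblast-like cells held 64.5% of all chain UMIs in TAC+ART, 59.8% in TAC and 65.5% in Sham, while they were 26.6%, 21.3% and 29.2% of the cells. Cells in no class held 12.3% in TAC+ART, 17.1% in TAC and 9.37% in Sham. Over all cells the family took 1385 CPM in TAC+ART, 1930.3 CPM in TAC and 743 CPM in Sham. Chain UMIs per fibroblast-like cell had a log2 ratio of 1.81 in TAC over Sham, and one of -0.76 in TAC+ART over TAC. These counts per cell are not scaled for depth, and the CPM ratios in the same cells were 1.43 and -0.57. The share of fibroblast-like cells gave log2 ratios of -0.46 and 0.32 in the same comparisons, so the family and the share of these cells differed in opposite directions. Shares of cells can also follow from how tissue was broken up.

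Enzymes and partners that handle the chains were counted in fibroblast-like cells from lists of genes. Over all genes, 16.0% were higher and 11.1% lower by 1.5-fold or more in TAC over Sham, and 6.74% were higher and 6.30% lower in TAC+ART over TAC, so a list's count is read beside these shares and beside the medians of all genes (0.03 and -0.05). Of 21 measured genes of collagen biosynthesis and folding, 12 were higher by 1.5-fold or more in TAC over Sham and 2 were lower, with a median log2 ratio of 0.62. At the ends lay Serpinh1, the collagen chaperone HSP47, at 148 CPM in TAC+ART, 284 CPM in TAC and 70.3 CPM in Sham (2.01), and P3h2, a prolyl 3-hydroxylase (1.91), then Colgalt2, a collagen galactosyltransferase (-1.05), and Larp6, which binds type I collagen mRNA (-1.32). With artesunate (TAC+ART over TAC) 1 was higher and 5 were lower, with a median of -0.46. Serpinh1 (-0.94) and the transcription factor Creb3l1 (-0.87) were lowest there, and Colgalt2 (0.81) and Larp6 (0.56) highest.

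Of 11 genes of propeptide processing and crosslinking, 6 were higher and 2 lower in TAC over Sham, with a median of 0.68. Lox, which starts crosslinks by oxidising lysines, had 12.7 CPM in TAC+ART, 50.4 CPM in TAC and 6.12 CPM in Sham, with a log2 ratio of 3.02 (2.53 to 3.61) in TAC over Sham, and one of -1.99 (-2.29 to -1.70) in TAC+ART over TAC. Loxl2 of the same family was at 1.59 for TAC over Sham. Tll2, a protease of the family that trims procollagen, went the other way with 105 CPM in TAC+ART, 26.2 CPM in TAC and 179.7 CPM in Sham (-2.78 for TAC over Sham, 1.996 for TAC+ART over TAC). Pcolce2, which aids that trimming, was at -0.92 and 0.75, and Loxl1 was at -0.61 in TAC+ART over TAC. There, 2 were higher and 3 lower, with a median of -0.40.

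Of 16 fibril nucleators and surface binders, 11 were higher and 2 lower in TAC over Sham, with a median of 1.36. Comp (5.37) and Postn (4.06) were highest, Postn at 369 CPM in TAC+ART, 975 CPM in TAC and 58.5 CPM in Sham. Comp was at 19.3 CPM in TAC+ART, 67.0 CPM in TAC and 1.53 CPM in Sham, so its ratio rests on 8 Sham UMIs. Thbs2 (-1.48) and Tnxb (-0.60) were lowest. The list includes Dpt, a marker of the fibroblast-like gate, whose ratio is not independent of how the cells were chosen. Of the binders, 1 was higher and 6 lower in TAC+ART over TAC, with a median of -0.34. Comp (-1.79) and Col12a1, a collagen on the fibril surface (-1.78), were lowest there, and Thbs2 (0.69) and Aspn (0.58), a small proteoglycan, highest.

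Of 7 collagen receptors and uptake genes, 3 were higher and 1 lower in TAC over Sham, with a median of 0.36. The integrin Itga1 (0.79) and the uptake receptor Mrc2 (0.74) were highest, and Itga2 (0.04) and Ddr2, a receptor kinase for fibrillar collagen (-0.75), lowest. None was past 1.5-fold in TAC+ART over TAC, where values ran from -0.31 for Mrc2 and -0.14 for Itgb1 to 0.18 for Ddr2 and 0.35 for Itga11. Of 7 collagenase and gelatinase genes with their inhibitors, 5 were higher and 2 lower in TAC over Sham, with the inhibitor Timp1 at 3.50 and Mmp14, a membrane-bound collagenase, at 1.71, and with Mmp16 at -0.80 and Timp3 at -1.09. In TAC+ART over TAC, 2 of 8 were higher (Timp3 at 0.76 and Mmp16 at 0.63) and 2 lower (Timp1 at -2.66 and Mmp14 at -0.93).

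Of 26 regulators of collagen transcription, 10 were higher and 1 lower in TAC over Sham, with a median of 0.40. Meox1, a homeobox factor of activated fibroblasts, had 70.2 CPM in TAC+ART, 191 CPM in TAC and 13.8 CPM in Sham (3.79 for TAC over Sham, -1.45 for TAC+ART over TAC). Ccn2, a matrix-bound growth regulator, was at 3.21, and Mrtfb (-0.33) and Tgfb2 (-0.67) were lowest. None was higher and 8 were lower in TAC+ART over TAC, with a median of -0.31. Runx1 (-1.51) and Meox1 lay lowest and Tgfb2 (0.37) and Tcf21 (0.19) highest. Tcf21 is also a marker of the fibroblast-like gate, so its ratio is not independent of how the cells were chosen. Of 4 fibrillar collagen genes outside the family, 1 had 100 UMIs: Col27a1, found in cartilage, had 135 CPM in TAC+ART, 74.1 CPM in TAC and 78.2 CPM in Sham. It was at -0.08 (-0.26 to 0.10) in TAC over Sham, and at 0.86 (0.73 to 0.998) in TAC+ART over TAC, unlike the 6 chains in both.

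In TAC+ART over Sham, 8.51% of all genes were higher and 4.49% lower by 1.5-fold or more, with a median of -0.02. By the same measure, 5 genes of biosynthesis and folding were higher and 1 lower (median 0.19), from P3h2 (1.32) and Serpinh1 (1.07) to Creb3l1 (-0.26) and Larp6 (-0.76). Of processing and crosslinking genes 5 were higher and 2 lower (0.39), from Loxl2 (1.09) and Lox (1.03) to Adamts14, a procollagen peptidase (-0.71), and Tll2 (-0.78). Of nucleators and binders 12 were higher and 1 lower (0.999), from Comp (3.57) and Postn (2.65) to Tnxb (-0.21) and Thbs2 (-0.79). The Comp value again rests on 8 Sham UMIs.

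Of the receptors 2 were higher and none lower in TAC+ART over Sham (median 0.43), from Itga1 (0.84) and Itga11 (0.71) to Itga2 (0.04) and Ddr2 (-0.57). Of 7 collagenase genes and inhibitors 2 were higher and none lower (0.44), from Timp1 (0.85) and Mmp14 (0.78) to Mmp16 (-0.18) and Timp3 (-0.32). Of 25 regulators 4 were higher and none lower (0.07), from Meox1 (2.34) and Ccn2 (2.30) to Yap1 (-0.21) and Tgfb2 (-0.30). Col27a1 was at 0.79.

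Across the 21 sums of 7 classes by 3 libraries, the level of Col1a2 followed that of Col3a1 (Pearson r of log2(CPM + 1) 0.99), and Col1a1 followed Col3a1 (0.95). Col1a1 and Col5a2 were at 0.48, and Col1a1 and Col5a3 at 0.60. The sums share classes, libraries and free RNA, so these are descriptions. The 10 genes outside the family most like its sum were Ccdc80 (0.97), Bgn (0.94), Col6a2 (0.94), Tmem45a (0.93), Fstl1 (0.93), Col6a1 (0.93), Mxra8 (0.93), Col6a3 (0.91), Olfml3 (0.90) and Serping1 (0.90). They include 3 chains of collagen VI, which forms beaded filaments, and the proteoglycan biglycan (Bgn).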

How the data were processed

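RNA was counted per droplet barcode in ventricles of 3 libraries of 3 pooled hearts each (TAC+ART, TAC and Sham). UMI counts, deposited unnormalized, were used as they stand. Per the submitters' processing notes, Cell Ranger, Seurat and the mm10 build were used, with tool versions and the rule for keeping barcodes not given in the sources. The libraries held 33364667 UMIs in TAC+ART, 37658150 in TAC and 17710689 in Sham.

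Kept barcodes had at least 500 UMIs and 300 genes and no more than 10% mitochondrial UMIs. Doublets were scored with Scrublet in scanpy 1.11.5, and the highest 0.8% per 1000 barcodes left out, or 376 TAC+ART, 440 TAC and 112 Sham barcodes. A cell joined a class when its mean log marker score, scaled from the 10th to the 99.9th percentile, reached 0.3 with at least 3 marker UMIs of 2 markers, and every unrelated class scored at most 0.5 times as high. Classes are named after markers as "-like". UMIs were summed per class and library. Ratios are log2 with 0.5 counts added, and called at 1.5-fold with at least 100 UMIs in the 2 libraries. Sums have exact Poisson, shares Clopper-Pearson and ratios conditional binomial intervals (95%). No test was possible with 1 library a group. Ratios were checked on simulated counts. Clusters (Leiden, resolution 1) left out the chains.

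The chains and gene lists were chosen with earlier results of these data known. Named genes were all chains, the 2 highest and 2 lowest of each list per comparison, the 10 genes most like the family sum, the class markers, and Postn, Thbs4, Comp and Grm8. Alternatives covered classes, doublets, scaling (edgeR 4.0.16), depth, gate, free RNA, thinning and thresholds.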

Additional observations from a re-analysis of the deposited data

How the results depend on the processing

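No paired analysis was possible because each group holds 1 library. The limits are those of 1 pooled library per group: intervals cover counting error only, cell recovery and free RNA can differ between libraries, and class names rest on markers. The family stayed higher in TAC than in Sham and lower in TAC+ART than in TAC in fibroblast-like cells under all 12 alternatives, 3 of them chosen after seeing the data.

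The log2 ratio of the family, 1.43 for TAC over Sham and -0.57 for TAC+ART over TAC, became 1.35 and -0.51 with classes from clusters, 1.49 and -0.63 with a stricter gate, and 1.505 and -0.634 as a mean over cells. It was 1.20 and -0.46 after subtracting the cardiomyocyte-like level. TMM scaling gave -0.52 and a limit of 8000 UMIs per cell -0.54 for TAC+ART over TAC. Of the alternatives added later, subtracting the macrophage-like level gave 1.33 for TAC over Sham. Leaving out fibroblast-like cells of cluster 12 gave 1.39 and -0.53, and counting all barcodes of that cluster as fibroblast-like gave 1.47 and -0.60. The causes were not tested. The number of chains lower in TAC+ART than in TAC by 1.5-fold, 3 of 6, became 1 with classes from clusters and 0 at 2-fold, and lay between 2 and 4 otherwise. The number higher in TAC than in Sham stayed at 6 except at 2-fold, where it was 4. The shares of all genes (16.0% and 6.30%) belong to the main gate at 1.5-fold. They were not computed for these other settings, so these counts have no such share to be read beside.

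Shares of fibroblast-like cells with a chain UMI follow depth. At 500 UMIs they were 70.4% in TAC+ART, 81.8% in TAC and 49.6% in Sham, at 2000 UMIs 97.6%, 98.9% and 90.9%, and unthinned 99.8%, 100% and 98.5%. With classes from clusters, fibroblast-like cells held 67.1% of the chain UMIs in TAC+ART, 64.6% in TAC and 69.5% in Sham, and the Col1a1 share in TAC was 16.3%.

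For TAC over Sham in other classes, 7 values past 1.5-fold changed sign among the ratios that could still be formed. Subtracting the cardiomyocyte-like level gave -1.55 for Col1a2, -3.13 for Col3a1 and -0.48 for the family in pericyte-like cells, and -0.46 for Col5a2 in endothelial-like cells. Subtracting the macrophage-like level gave -0.00467 for Col1a2 in pericyte-like cells, and -0.40 for Col1a2 and -1.15 for Col5a1 in endothelial-like cells. Of 947 values of single chains and class sums under the alternatives, 858 stayed within the counting interval, 82 moved beyond it, and 7 are those above. Sign changes of ratios short of 1.5-fold before the subtraction are not among the 7. The pericyte-like family was lower in TAC+ART than in TAC (-0.34), yet its excess over cardiomyocyte-like cells was larger in TAC+ART (1013 against 389 CPM) than in TAC (1281 against 841 CPM). The endocardial-like family was higher in TAC than in Sham (0.56), yet its excess was smaller in TAC (1056 against 841 CPM) than in Sham (718 against 94.5 CPM). Where a level lay at or below the level subtracted no ratio could be formed, and such cases are not among the 947. In TAC the family in endothelial-like (757 CPM), lymphatic endothelial-like (726 CPM) and macrophage-like cells (588 CPM) lay below the cardiomyocyte-like level (841 CPM). Col1a1 in TAC pericyte-like cells also lay below it (113 against 131 CPM).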
